A study of Mus musculus with 2 samples.

Results

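The small heat shock proteins described here are Hspb1, Hspb6, Hspb7, Hspb8 and Cryab, 5 of the 16971 genes counted in single cells of the mouse aorta. They were chosen by their symbols with their levels across the cell populations already known, so those levels are given as a description and carry no test. The mice were C57/BL6 females, wild-type, fed chow and 12 weeks old, with no transgene or other treatment named. Their entire aortas were broken down enzymatically (1 hour, 37 °C), and 1 library was made from each of 2 aortas with droplet single-cell sequencing (10x v2). There is 1 group, so all comparisons are between cell populations within it. The 2260 cells of library 1 and 3191 cells of library 2 carry the authors' names for 10 populations: vascular smooth muscle cells (VSMC), fibroblasts (Fibro 1 and Fibro 2), endothelial cells (EC 1, EC 2 and EC 3), monocytes and macrophages (Mono 1, Mono 2 and Macro) and Neuron. Which library belongs to which labelled aorta is not stated, so the numbers 1 and 2 are names only.

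Small heat shock proteins are chaperones that share an alpha-crystallin domain and work without ATP: they bind proteins that begin to unfold and hold them until ATP-driven chaperones refold them or they are degraded. In muscle they associate with actin filaments, intermediate filaments and filamins, which bear mechanical load. Hspb1 (Hsp25 in mice, Hsp27 in humans) is induced by heat shock factor and phosphorylated through the p38 kinase cascade, Hspb6 (Hsp20) is phosphorylated during smooth muscle relaxation, Hspb7 (cvHsp) is known from heart and skeletal muscle, Hspb8 works with the co-chaperone Bag3 in removing damaged filament proteins, and Cryab (alpha-B-crystallin) is abundant in lens, muscle and glia.

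Promoter sequences were looked at because Hspb1 alone of the 5 was much higher in the cells richest in inducible chaperone transcripts, as the values further on show. Heat shock factor binds inverted repeats of a short unit, and pairs of it were searched as GAANNTTC or TTCNNGAA, each of which reads the same on both strands. RefSeq promoter windows on GRCm38.p6, running from 250 bases before to 50 bases after the start of transcription, existed for Hspb1, Hspb7 and Hspb8 with 1 entry each and for Hspb6 with 2 entries. The Hspb1 window held 2 matches, GAAGTTTC beginning 117 bases and GAACCTTC beginning 97 bases before the start. At least 1 match was found in 15.1% of the 32851 windows and at least 2 in 1.96%. Of the 20 genes of a list of heat shock factors and inducible chaperones, 16 had a window. Of these 16, 9 held at least 1 match and 4 at least 2. For a gene with several windows the one with most matches was taken, while the shares above count each window on its own. The 250 bases before the start are shown for Hspb1 (plus strand, chr5:135887669-135887918), for the Hspb6 entry with a match (plus strand, chr7:30553051-30553300) and for Hspb7, which has none (plus strand, chr4:141420529-141420778), with matches in capitals.
Hspb1: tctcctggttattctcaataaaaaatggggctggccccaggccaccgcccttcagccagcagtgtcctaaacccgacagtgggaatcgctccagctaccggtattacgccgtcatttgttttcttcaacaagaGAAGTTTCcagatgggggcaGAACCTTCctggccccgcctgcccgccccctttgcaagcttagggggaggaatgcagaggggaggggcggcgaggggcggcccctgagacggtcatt
Hspb6: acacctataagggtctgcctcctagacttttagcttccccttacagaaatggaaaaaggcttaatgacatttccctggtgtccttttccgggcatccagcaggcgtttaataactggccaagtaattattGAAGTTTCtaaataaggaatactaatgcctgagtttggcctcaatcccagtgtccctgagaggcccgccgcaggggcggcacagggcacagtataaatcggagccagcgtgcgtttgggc
Hspb7: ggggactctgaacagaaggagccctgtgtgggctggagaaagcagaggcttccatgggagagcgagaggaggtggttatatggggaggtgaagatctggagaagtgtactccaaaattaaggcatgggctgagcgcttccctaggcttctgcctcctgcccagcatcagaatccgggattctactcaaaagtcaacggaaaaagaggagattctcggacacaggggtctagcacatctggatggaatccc
The Hspb6 match begins 120 bases before the start, and the other Hspb6 entry has none. The Hspb8 window has 1 match, GAAGTTTC from base 3 after the start. No window of these genes held a CArG box, the sequence bound by serum response factor, which occurred in 1.63% of all windows. Cryab had no window, so neither sequence was searched for it. A match is a description of letters and not evidence of binding.

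Library 1 held 11104066 unique molecular identifiers (UMIs, counts of captured transcripts) with a median of 4160.5 per cell, and library 2 held 19484171 with a median of 5636. Levels are CPM, in which the UMIs summed over the cells of a population in a library are scaled to the same total for every sum. The 2 libraries shared 12 barcode sequences. Smooth muscle markers (Acta2, Myh11, Cnn1, Tagln) summed to 32394 and 29671 CPM in VSMC and 429 to 3344 CPM elsewhere. The population named Macro had 33.5 and 81.4 CPM of macrophage markers, against 1042 and 1112 CPM of T and NK cell markers and 1447 and 779 CPM of B cell markers, so its name is used only as the authors' label. The cells named Neuron carried the Schwann cell markers Mbp, Sox10 and S100b at 2285 and 3760 CPM in sum, against at most 67.4 CPM elsewhere. Of the cardiac muscle markers, Myh6 and Nppa have no row, and the other 4 summed to at most 27.2 CPM in any population. Of the skeletal muscle markers, Myh4 and Myh1 have no row, and the other 4 summed to at most 18.5 CPM.

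Hspb1, which caps and protects actin filaments, reached 1226 CPM in library 1 and 1575 CPM in library 2 in VSMC (1400 ± 247, SD, n = 2 libraries). EC 2 stood at 1178 and 1414 CPM, and the library values of these populations overlap. Neuron had 369 and 673 CPM, EC 1 had 399 and 580 CPM, and EC 3 had 171 and 542 CPM, all overlapping with each other. Fibroblasts were lower by mean, with 153 and 235 CPM in Fibro 2 and 126 and 143 CPM in Fibro 1. The Fibro 2 values overlapped with those of EC 3, which rest on 22 UMIs in library 1. The 3 immune populations lay between 29.3 and 113 CPM. Hspb1 is therefore the member whose high level is shared by smooth muscle and 1 endothelial population. In VSMC 86.3% and 96.2% of cells had at least 1 Hspb1 UMI, in EC 2 83.9% and 96.0%, and in Mono 2, used here as a background, 22.5% and 21.7%, at median depths of 4648 and 7154, 2394 and 2790, and 7286 and 6920 UMIs. With every cell thinned to 1300 UMIs the shares were 65.2% and 74.3% in VSMC, 66.1% and 79.2% in EC 2, and 5.00% and 5.80% in Mono 2.

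Within the endothelium, the Hspb1 level of EC 2 was 2.95-fold and 2.44-fold that of EC 1 in the libraries, and 6.90-fold and 2.61-fold that of EC 3. EC 1 and EC 3 overlapped. Markers of other cell types also differed between these populations: pericyte markers (Rgs5, Kcnj8, Abcc9, Notch3) summed to 983 and 708 CPM in EC 2, with all 4 detected, against 70.9 and 50.1 CPM in EC 1, where Notch3 is at 0, and 124 and 43.1 CPM in EC 3. Smooth muscle markers summed to 3344 and 952 CPM in EC 2, 1886 and 1126 CPM in EC 1 and 1428 and 659.6 CPM in EC 3, with all 4 detected in each, so in library 2 they were lower in EC 2 than in EC 1. Adipocyte markers (Adipoq, Plin1, Cidec, Car3) summed to 225 and 307 CPM in EC 2, against 1.65 and 38.1 CPM in EC 1 and 0 and 30.8 CPM in EC 3, and their part in the difference was not tested. The same pericyte markers summed to 1282 and 1502 CPM in VSMC, so they do not separate pericytes from smooth muscle here. In the 46 and 151 EC 2 cells with at most 2 UMIs of these markers, Hspb1 was 1349 and 1494 CPM. In all EC 2 cells Hspb1 was 1178 and 1414 CPM. The part of pericyte or smooth muscle RNA in the EC 2 level was not tested.

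Hspb6, the small heat shock protein of smooth muscle relaxation, was at 314 and 320 CPM in VSMC (317 ± 3.97, SD, n = 2). No other population exceeded 69.3 CPM, which was 3 UMIs in the 12 Neuron cells of library 1. Fibro 1 had 22.9 and 17.0 CPM, so VSMC were 13.7-fold and 18.8-fold higher. Of all Hspb6 UMIs, 95.0% and 93.3% came from VSMC, which held 53.7% and 39.0% of all UMIs. In VSMC 60.9% and 72.1% of cells had a UMI, against 7.18% and 7.25% in Mono 1 at median depths of 3574 and 4421.5 UMIs. Outside VSMC, neighbours in the order of Hspb6 levels overlapped, except Fibro 2 and Mono 2.

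Hspb7, the member best known from striated muscle, was at 508 and 642 CPM in VSMC (575 ± 94.8, SD, n = 2). Its second level was in Fibro 1, at 115 and 136 CPM, while Fibro 2 had 17.3 and 17.0 CPM. The fibroblast populations did not overlap, and Fibro 1 was 6.68-fold and 7.97-fold higher than Fibro 2. All other populations lay between 0 and 53.3 CPM, and the 0 in Neuron of library 1 allows up to 69.3 CPM at a floor of 3 counts, for counting error only. In Fibro 1, 28.2% and 32.0% of cells had an Hspb7 UMI, against 8.70% and 8.90% in Fibro 2, at median depths of 4579.5 and 6024, and 4515 and 5906 UMIs. Pericyte markers summed to 418 and 443 CPM in Fibro 1 and 294 and 260 CPM in Fibro 2, with all 4 detected in both, and smooth muscle markers to 1609 and 915 CPM and to 933 and 682 CPM; the part of the first in the Hspb7 difference was not tested.

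Hspb8, the partner of Bag3, had like levels in VSMC and Fibro 2, with Fibro 1 somewhat lower within each library. Fibro 2 had 77.8 and 97.6 CPM, VSMC 66.0 and 99.5 CPM, and Fibro 1 50.9 and 68.9 CPM. These 3 populations form a chain of overlapping neighbours, and the mean of VSMC and of Fibro 2 differed by less than the spread between libraries (82.8 ± 23.7 and 87.7 ± 14.0 CPM, SD, n = 2 each). Within each library Fibro 2 was 1.53-fold and 1.42-fold above Fibro 1, and VSMC were 1.29-fold and 1.45-fold above Fibro 1. EC 1 had 16.5 and 32.8 CPM, from 10 and 49 UMIs. EC 3 had 0 and 1 UMI, and the 0 allows up to 23.3 CPM. Neuron had 69.3 and 10.7 CPM from 3 UMIs and 1 UMI, so its place in the order is not determined at this depth.

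Cryab, the glial and muscle member, was highest in the cells named Neuron, at 1316 and 2467 CPM. These levels rest on 57 UMIs in 12 cells and 231 UMIs in 32 cells, with exact 95% Poisson intervals of 997 to 1705 CPM and 2159 to 2807 CPM that cover counting error only. VSMC stood at 436 and 435 CPM, Fibro 1 at 337 and 275 CPM, and Fibro 2 at 177 and 173 CPM, and none of these 4 populations overlapped with the next. Endothelial populations lay between 25.2 and 76.9 CPM and immune populations between 12.1 and 29.3 CPM. VSMC exceeded Fibro 1 by a factor of 1.29 and 1.58, and Fibro 1 exceeded Fibro 2 1.91-fold and 1.59-fold.

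**Figure D1:**
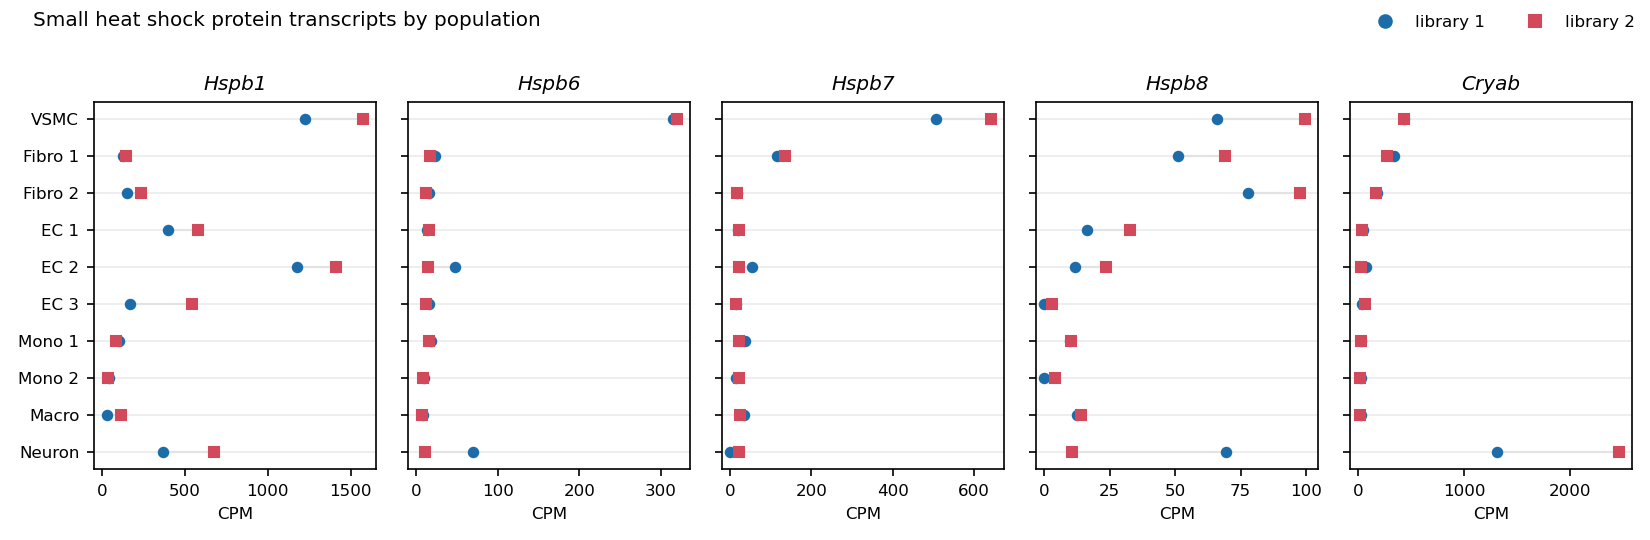
Levels of the 5 small heat shock protein transcripts in CPM (x axes, linear, a scale for each gene) in the 10 populations (y axis), with 1 circle for library 1 and 1 square for library 2 joined by a line. Hspb1 is as high in EC 2 as in VSMC, Hspb6 and Hspb7 are highest in VSMC, Hspb8 is shared by VSMC and both fibroblast populations, and Cryab reaches 1316 and 2467 CPM in Neuron.

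The Neuron population was split cell by cell, a division chosen after its values were seen. Its 10 and 18 cells with at least 3 Schwann marker UMIs (Mbp, Sox10, S100b) had Cryab at 1966 and 3907 CPM, and 9 and 18 of them had a Cryab UMI. The other 2 and 14 cells had 6 and 23 Cryab UMIs, or 345 and 569.5 CPM. The 2 and 7 cells with over 2 pericyte UMIs had Cryab at 341 and 129 CPM and Hspb1 at 487 and 1158 CPM. Hspb1 in the cells with at least 3 Schwann UMIs was 501 and 619.8 CPM. In library 1 the low value rests on 2 cells: 1 had 0 Cryab UMIs of 13899, and the other had 6 of 3476 beside 2 Schwann UMIs. The comparison of cells with more and fewer Schwann UMIs thus rests on library 2, where Cryab was higher in the first. There all 7 cells with over 2 pericyte UMIs had under 3 Schwann UMIs, and they held 3 of the 23 Cryab UMIs. The remaining cells with under 3 Schwann UMIs had 0 to 5 Cryab UMIs each, so 569.5 CPM mixes unlike cells. Hspb1 was also found in the cells with pericyte marker UMIs. The cell with most Cryab UMIs held 48 of the 231 in library 2, and without it the level there was 2069 CPM.

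**Figure D2:**
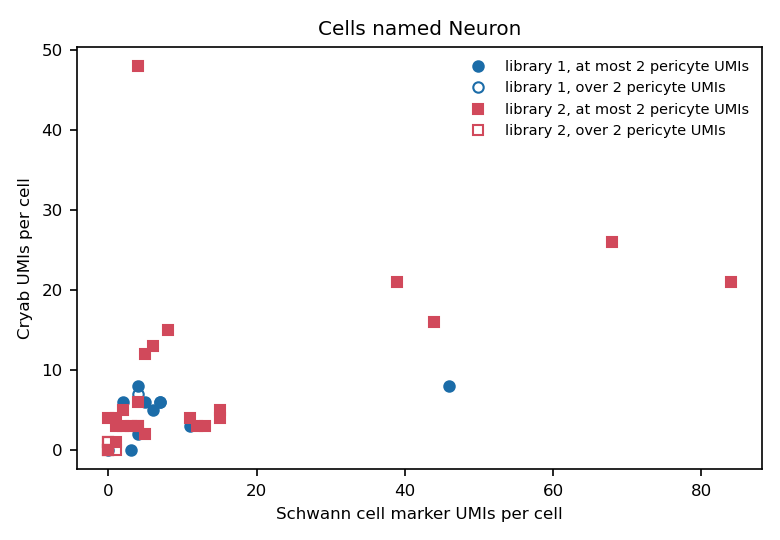
UMIs of Cryab (y axis) against the summed UMIs of 3 Schwann cell markers (x axis) in each of the 44 cells named Neuron, circles for library 1 and squares for library 2, open where a cell has over 2 pericyte marker UMIs. Cells with under 3 Schwann UMIs have at most 6 Cryab UMIs, and 1 cell of library 2 has 48.

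To set the levels outside VSMC beside smooth muscle transcripts, each member was counted per 100 UMIs of 5 tracer genes (Acta2, Myh11, Tagln, Cnn1 and Mylk). The part of smooth muscle RNA from outside a cell in these levels was not tested. Hspb6 had 0.94 and 1.04 UMIs per 100 tracer UMIs in VSMC. In the 9 other populations this ratio was 0.52 to 2.36 times that of VSMC. It was 1.43 and 1.68 times in Fibro 1 and 1.51 and 1.83 times in Mono 1, but 0.72 and 0.56 times in Macro. The ratio of Hspb7 was 4.46 and 6.67 times that of VSMC in Fibro 1, but 1.15 and 1.14 times in Fibro 2 and 0.98 and 0.96 times in EC 2. Hspb7 thus stood above the VSMC ratio in Fibro 1 and near it in Fibro 2 and EC 2, with 1.87 and 1.34 times in Mono 1. For Hspb8 the ratio was 15.2 and 21.8 times that of VSMC in Fibro 1 and 40.0 and 42.3 times in Fibro 2. From few UMIs, it was 4.26 and 8.36 times in EC 1, 3.89 and 4.03 times in Mono 1 and 5.13 and 3.61 times in Macro. In EC 3 it was 0 and 1.20 times, and in Mono 2 0 and 2.73 times. Cryab was 15.2 and 19.9 times the VSMC ratio in Fibro 1, 13.7 and 17.1 times in Fibro 2, and 32.4 and 87.7 times in Neuron, against 1.65 and 1.64 times in EC 2 and 1.87 and 1.95 times in EC 1, while EC 3 had 1.51 and 6.03 times, from 4 and 22 Cryab UMIs. The Hspb1 ratio was 8.99 and 25.5 times that of VSMC in EC 2, 5.54 and 9.36 times in EC 1, and 1.28 and 1.64 times in Mono 2.

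**Figure D3:**
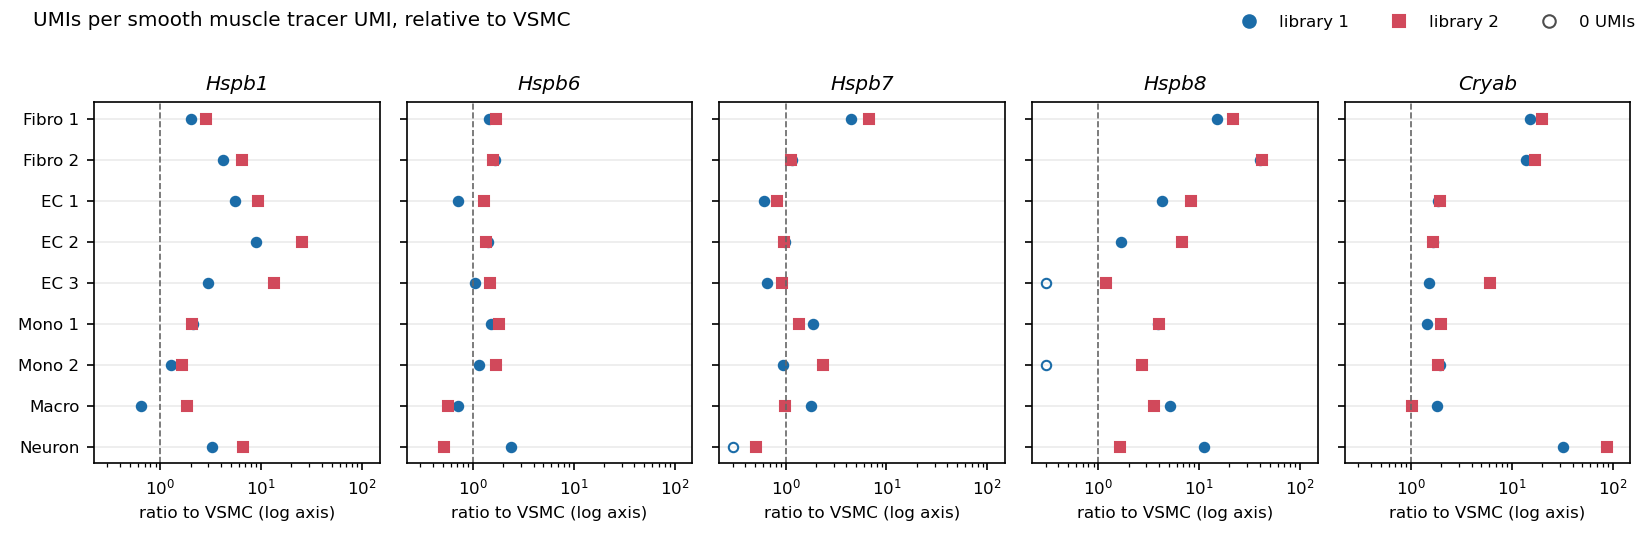
UMIs of each member per UMI of 5 smooth muscle tracer genes, divided by the same ratio in VSMC (x axes, logarithmic, dashed line at 1), in the 9 other populations (y axis), circles for library 1 and squares for library 2; open symbols at the left edge mark a count of 0. Hspb6 lies between 0.52 and 2.36, and Hspb7 lies farthest to the right in Fibro 1 (4.46 and 6.67). Hspb8 and Cryab lie far to the right in both fibroblast populations.

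As a summary of the smooth muscle excess, log2(CPM + 5) of VSMC was set against the mean of the other 9 populations. It was 2.86 and 2.61 for Hspb1, 3.67 and 4.24 for Hspb6, 4.19 and 4.39 for Hspb7, 1.75 and 2.12 for Hspb8 and 2.30 and 2.49 for Cryab in the libraries. All 5 exceed the median of 0.06 over the 12512 genes with at least 50 UMIs, which is what they were chosen for. In the fit across all genes described below, VSMC against the other classes, all 5 were on the higher side (log2 2.91 for Hspb1, 4.47 for Hspb6, 4.32 for Hspb7, 2.25 for Hspb8 and 2.87 for Cryab). There 28.7% of the 10488 genes tested were called higher and 20.6% lower, and nothing is read from the members' place among them.

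The other members of the family complete the picture. Hspb2 and Hspb11 have a row, while Hspb3, Hspb9, Odf1 and Cryaa have none. Hspb2, a muscle member that binds the myotonic dystrophy kinase, was at 193 and 182 CPM in VSMC, 69.3 and 117 CPM in Neuron, 50.9 and 49.9 CPM in Fibro 1 and 21.1 and 21.1 CPM in Fibro 2. Its gene lies head to head with Cryab, and in the GENCODE annotation of GRCm38 both overlap over 1030 bases on opposite strands. No source used here states whether counting used the strand, so it is not known whether reads from the overlap were told apart. The Cryab to Hspb2 ratio of UMIs was 2.26 and 2.39 in VSMC, 6.61 and 5.5 in Fibro 1, 8.36 and 8.19 in Fibro 2, and 19.0 and 21.0 in Neuron, so the neighbours did not rise and fall in proportion. Hspb11 is an intraflagellar transport protein named into the family. It was at 37.8 and 32.3 CPM in VSMC and 17.8 to 78.1 CPM elsewhere, except Neuron with 0 and 21.4 CPM. Library values beside an edgeR fold, here and below, are differences of log2(CPM + 5). They are another measure than the fold, which can lie outside them. In VSMC against the other classes Hspb2 was higher by 3.81 on the log2 scale (SE 0.13, adjusted p = 1.96e-21, edgeR; 3.192 and 3.399 in the libraries), and Hspb11 did not pass the test (0.05, SE 0.14, adjusted p = 0.846, edgeR). Hspb6 shares 122 bases with Proser3 and 3 bases with Lin37, both on the opposite strand, and contains the miRNA gene Gm38670 on its own strand; Hspb1, Hspb7 and Hspb8 overlap no other annotated gene.

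The genes whose pattern was most like each member were taken by Pearson's r of log2(CPM + 10) over the 20 sums of 10 populations in 2 libraries, which share libraries and depth. For Hspb1 they were Lims2 (r = 0.93), Chchd2, Gnb4, Fermt2 and Ywhaq. For Hspb6 they were Ldb3 (r = 0.97), Itga8, Cnn1, Itih4 and Sh3bgr. For Hspb7 they were Kcnma1 (r = 0.94), Cav3, B3galt1, Ccdc42 and Mark1. For Hspb8 they were Vcan (r = 0.90), Clip4, Adamtsl5, Ddr2 and Klhl26, and for Cryab they included Fxyd1 (r = 0.97), Id4, Sema3b and Fam132a. Between members, r was 0.73 for Hspb6 and Hspb7, 0.60 for Hspb8 and Cryab, 0.60 for Hspb1 and Hspb6, and 0.29 for Hspb7 and Cryab, beside 0.88 for Cryab and Hspb2.

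Within VSMC the members were then followed from cell to cell. Cells of each library were ranked by the share of their UMIs in 10 inducible chaperone genes (Hspa1a, Hspa1b, Hsph1, Dnajb1, Hsp90aa1, Hspd1, Hspe1, Hspa8, Dnaja1 and Chordc1), none of them a member, and the 25% of cells with the highest and with the lowest share were summed, 275 cells each in library 1 and 264 in library 2. Hspb1 was at 1992 and 2347 CPM in the cells with most chaperone UMIs and at 834 and 1101 CPM in those with fewest, a log2 difference of 1.25 and 1.09. Both high values lie above both low values. Among the 10279 genes with at least 50 UMIs in VSMC, the median difference was -0.02 with quartiles of -0.19 and 0.14, and 4 genes lay above Hspb1. These 4, named after their values were seen, were Atf3 (2.02 and 1.94), Gm26802 (1.86 and 2.07), Socs3 (1.89 and 1.57) and Arc (0.91 and 1.44). Hspb6 differed by 0.02 and 0.09, Hspb7 by 0.28 and 0.10, Hspb8 by 0.13 and 0.28 and Cryab by 0.19 and 0.20. Depth moved with the ranking, with median UMIs per cell of 5526 and 7377.5 in the cells with most and 3128 and 5716.5 in those with fewest. With every cell thinned to 1300 UMIs before ranking, the Hspb1 difference was 1.09 and 0.88, and that of Cryab 0.51 and 0.39.

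Ranked instead by 14 immediate early genes, VSMC with most of these UMIs had Hspb1 at 1952 and 1901 CPM and those with fewest at 778 and 1412 CPM, a log2 difference of 1.32 and 0.43. Of 10275 genes, 42 lay above Hspb1 by the mean of the libraries. The other 4 members stayed between -0.12 and 0.16. Hspb2 differed by -0.28 and -0.31. The Hspb1 difference was larger in library 1 than in library 2 and had the same direction in both. Median depth was 4197 and 7407 UMIs in the cells with most and 4238 and 6083.5 in those with fewest.

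In Fibro 1, the 97 and 189 cells with most chaperone UMIs had Hspb1 at 155 and 185 CPM against 91.8 and 82.1 CPM in as many cells with fewest, a log2 difference of 0.73 and 1.12, and Cryab at 356 and 328 CPM against 286 and 228 CPM, a difference of 0.31 and 0.52. In EC 1, 37 and 69 cells at each end had Hspb1 at 616 and 720 CPM against 268 and 527 CPM, a difference of 1.18 and 0.45. After thinning to equal depth the Hspb1 difference was 0.20 and 0.31 in Fibro 1 and -0.30 and 0.50 in EC 1, smaller than with all UMIs except in library 2 of EC 1, where it was 0.45 with all UMIs. The thinned Cryab difference in Fibro 1 was 0.00 and -0.21.

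**Figure D4:**
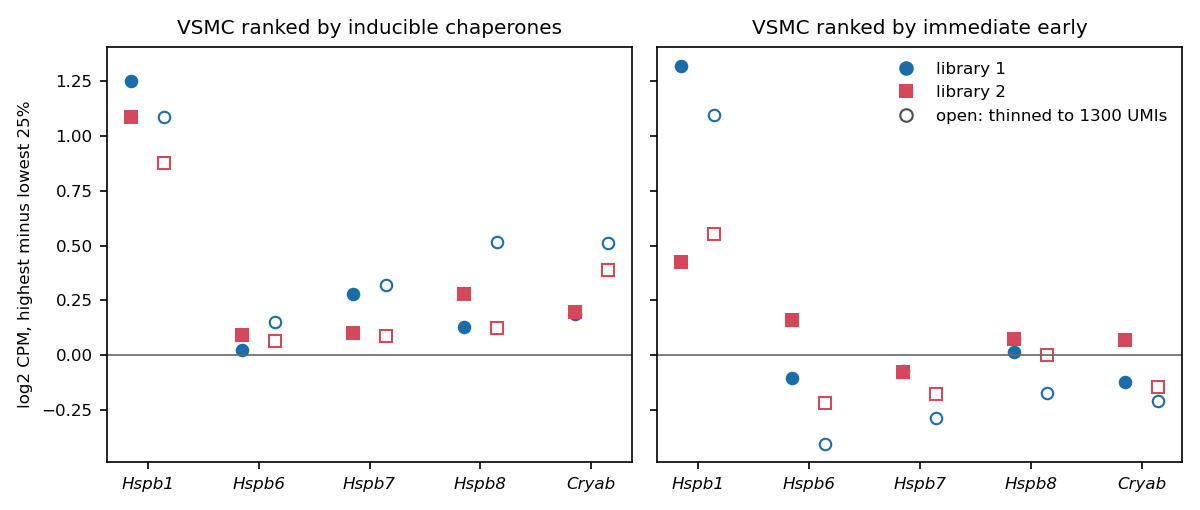
Difference in log2 CPM (y axis) between the VSMC with the highest and the lowest share of inducible chaperone UMIs (left) or immediate early UMIs (right) for the 5 members (x axis), circles for library 1 and squares for library 2, filled for all UMIs and open after thinning to 1300 UMIs per cell. Hspb1 lies between 0.43 and 1.32 in both rankings, and the other members between -0.40 and 0.52.

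Hspb1 also had the widest spread of the 5 between VSMC. In VSMC thinned to 1300 UMIs its variance was 2.94 and 2.52 times its mean, with up to 23 and 20 UMIs in a cell, while the ratio was 1.15 and 1.14 for Hspb6, 1.12 and 1.12 for Hspb7, 0.96 and 1.06 for Hspb8 and 1.15 and 1.08 for Cryab. Hspb1 also had the highest mean there, 1.56 and 1.98 UMIs per cell against at most 0.84 for the others. In EC 2, at a like mean of 1.52 and 1.88, the Hspb1 ratio was 1.80 and 1.31, with up to 6 and 8 UMIs. Between pairs of members in VSMC, r across cells was -0.05 to 0.06, too weak at these counts to be read as a relation. At 1300 UMIs, 29.0% and 25% of VSMC showed 1 of the 5 members, 37.0% and 38.2% showed 2, 19.9% and 26.6% showed 3, and 8.88% and 3.50% showed none. In Mono 1 76.2% and 85.1% showed none.

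The wider chaperone system was compared between VSMC and the mean of the endothelial, fibroblast and immune classes with edgeR's quasi-likelihood test over all genes, on lists that hold no member. The populations are the authors' clusters of these same cells, so these p-values are too small. The inducible chaperones were mixed: of 20 heat shock factors and inducible chaperones 9 were higher and 2 lower in VSMC. Over all 10488 genes tested, 28.7% were called higher and 20.6% lower. The median log2 was 0.22 in the list against 0.02 over all genes tested. Dnajb4, a cytosolic co-chaperone of Hsp70, was higher by 2.36 (SE 0.10, adjusted p = 3.75e-19, edgeR; 2.36 and 2.20 in the libraries), at 387 and 296 CPM in VSMC. Hsph1 (Hsp110) was higher by 1.74 (SE 0.13, adjusted p = 1.31e-12, edgeR; 1.44 and 1.58), Hsp90aa1 by 0.72 and Stip1 by 0.66. The 2 lower genes, named after their values were seen, were Dnajb1 (-0.56) and Dnaja1 (-0.35). Hspa1b, a heat-induced Hsp70 gene, did not pass the test (-0.02, SE 0.21, adjusted p = 0.995, edgeR, with 0.34 and -0.33 in the libraries). Hspa4l (0.07) did not pass either. Hspa1b had 30.2 and 18.4 CPM in VSMC, against 300 and 164 CPM for Hspa1a, which was named after its values were seen.

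Partners, clients and kinases of small heat shock proteins were mostly higher, 14 of 20 with 2 lower and a median of 0.79. The shares over all genes tested were 28.7% higher and 20.6% lower. The filament proteins among them led: Des (desmin) was higher by 4.48 (SE 0.20, adjusted p = 7.38e-19, edgeR; 3.09 and 3.97 in the libraries), Synpo2, which joins Bag3 in clearing filamin, by 4.10 (SE 0.12; 3.29 and 4.32), Flnc (filamin C) by 3.62 (SE 0.23; 2.15 and 2.41) and Actn1 (alpha-actinin) by 3.49 (SE 0.11; 3.23 and 3.61). Several of these are themselves known as smooth muscle genes. Prkca (0.09) and Mapkapk2 (-0.11), the kinase that phosphorylates Hspb1, did not pass the test. The 2 lower genes, named after their values were seen, were Mapkapk3 (-2.31, with -1.072 and -1.003 in the libraries) and Mapk14 (-0.69). Mapkapk3 had only 2.18 and 1.05 CPM in VSMC. Bag3, also named after its values were seen, was called higher (0.66), but its CPM of 53.5 and 48.3 in VSMC lay beside 55.1 and 53.2 in Fibro 1 and 71.0 and 55.4 in EC 2.

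Chaperones of the endoplasmic reticulum went the other way, with 12 of 14 lower in VSMC, 1 higher and a median of -0.61. Of all genes tested, 20.6% were called lower and 28.7% higher. Sdf2l1 was lower (log2 -2.44, SE 0.17, adjusted p = 1.83e-13, edgeR; -1.92 and -1.91 in the libraries), as were Pdia6 (-1.15) and Dnajb11 (-0.78). The higher gene was Serpinh1, the collagen chaperone Hsp47 (0.82), at 603 and 490 CPM in VSMC but 2168 and 1947 CPM in Fibro 1. Dnajc3 (-0.29) passed the test and Hyou1 (-0.08) did not. Of the 14 immediate early genes 7 were lower and 0 higher, with a median of -0.40: these include Junb (-1.97, SE 0.20, adjusted p = 6.05e-10, edgeR; -2.10 and -1.76), Ier2 (-1.38), Zfp36 (-0.86) and Jun (-0.68), while Fos (0.02) and Klf6 (0.01) did not pass. None of the immediate early genes was higher at an unadjusted p under 0.05 in edgeR (0 of 14) or called higher by DESeq2 (0), while 2 were without a filter on low counts and 2 after thinning. Of all genes called, 58.2% were higher in VSMC, a share that was 45.3% by DESeq2 and 70.8% without a filter on low counts.

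**Figure D5:**
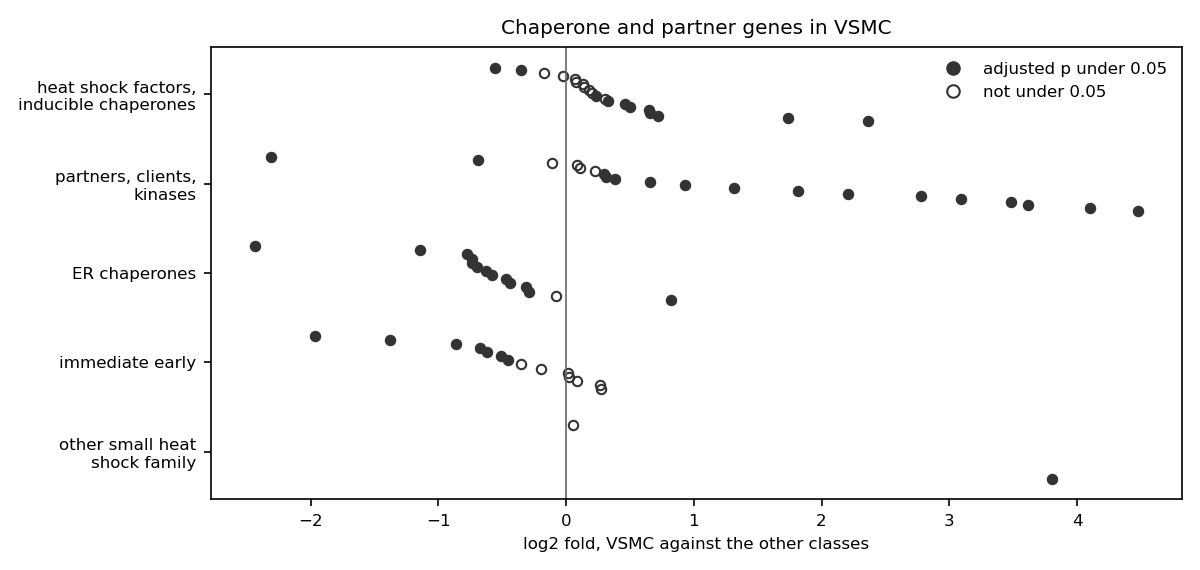
Log2 fold of VSMC against the mean of the other classes (x axis) for the genes of 5 lists without a member (y axis, sorted within a list), filled where edgeR's adjusted p is under 0.05. Partners and clients reach 4.48 (Des), 12 of 14 endoplasmic reticulum chaperones lie on the lower side as calls, and the Hspb2 point of the other family list lies at 3.81.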

How the data were processed

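Single-cell RNA of 2 wild-type aortas was analysed from the UMI counts per gene and cell and the population names that the authors deposited. Per the submitters' processing notes Cell Ranger 2.1 was used; the genome build and the use of strand in counting are not given in the sources used here. The library of a cell was taken from its barcode suffix. Samples on Western diet and a shallower library are not analysed here. The members and all gene lists were chosen with earlier results of these data known.

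Counts were summed per library and population (at least 10 cells) and scaled to CPM, in 20 sums. VSMC were compared with the mean of the endothelial, fibroblast and immune class means in edgeR 4.0.16 (R 4.3.3): TMM scaling, filterByExpr, glmQLFit and glmQLFTest on a design of library plus population that left 9 residual degrees of freedom, Benjamini-Hochberg adjustment over 10488 genes and a threshold of 0.05. Each library is 1 aorta, so its populations are paired by design and the library was the block. These p-values measure only the spread of the population sums between these 2 libraries that remains after the block, taken over all 10 populations. Excesses and differences between the 25% of cells with most and fewest list UMIs are on the log2(CPM + 5) scale and carry no test. The library values beside an edgeR fold are on this scale too, so that fold can lie outside them. Genes were named by rule: all members and family genes with a row, up to 4 called genes of each list with the largest fold and 2 with the smallest, and the 5 genes most like each member. The fit was tested on simulated data.

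Alternatives were RLE scaling, DESeq2 1.42.0, no filter, no block, no doublets (58 and 26 cells called by Scrublet in scanpy 1.11.5; the main results keep them), cells thinned to 1300 UMIs (the shallowest cell had 1322), at least 25 cells, other added CPM, 10% in place of 25% of cells, and each library alone. Intervals and floors of 3 counts cover counting error only. The cell splits by pericyte and Schwann UMIs were added after seeing the data. Some genes of the Schwann list and of the genes most like a member are not reported here, and the Schwann sums were computed without them. Python 3.11.15 with scipy 1.17.1 was used elsewhere.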

Additional observations from a re-analysis of the deposited data

Results flagged for a closer look

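The Hspb8 difference between cells with most and fewest immediate early UMIs had another sign in EC 1 than in VSMC and Fibro 1, from few UMIs and with values near 0 in VSMC. Cells with most immediate early UMIs differed from those with fewest by 0.01 and 0.07 (log2) in VSMC and by 0.41 and 0.21 in Fibro 1 in the libraries, but by -0.51 and -0.29 in EC 1, where the levels were 17.0 and 29.8 CPM against 26.3 and 37.6 CPM. The mean difference was 0.44 higher in VSMC than in EC 1, and EC 1 minus Fibro 1 was -0.71. The sign was the same in both libraries of each population, which is why these values are listed. The difference itself was not tested, and EC 1 held only 10 and 49 Hspb8 UMIs in all. After thinning to 1300 UMIs the VSMC mean was -0.086, so the sign in VSMC did not hold.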

How the results depend on the processing

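Of the list counts, 63 values under the alternatives lay within 1.5 times the main count and 7 did not. The inducible chaperones called lower numbered 1 without a filter on low counts and 0 after thinning, where 18 of the 20 were tested. After thinning, partners called lower numbered 0 and endoplasmic reticulum chaperones called lower 7. Immediate early genes called higher numbered 2 without the filter and 2 after thinning. In the fit with no replicate block for the pairing of populations within an aorta, inducible chaperones called lower numbered 1 and called higher 7, partners called higher 13, endoplasmic reticulum chaperones called lower 10 and immediate early genes called lower 5. Dnajb11 after thinning (-0.31) and Dnajc3 without the filter (-0.18), without the block (-0.29) and after thinning (-0.15) no longer passed. A library alone leaves no test for these counts.

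The VSMC excess (log2) was 3.20 for Hspb6, 3.66 for Hspb7, 1.30 for Hspb8 and 2.06 for Cryab with 20 CPM added, and 4.61 for Hspb7 and 2.42 for Hspb8 with 1 CPM added. After thinning it was 4.51 for Hspb7 and 2.46 for Hspb8. With at least 25 cells it was 4.13 for Hspb7 and 2.64 for Cryab, and without Macro and Neuron 4.12 and 2.80.

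In VSMC ranked by chaperones, thinning gave 0.98 for Hspb1, 0.11 for Hspb6, 0.32 for Hspb8 and 0.45 for Cryab, and the outer 10% of cells gave 1.72 for Hspb1, 0.33 for Hspb7, 0.40 for Hspb8 and 0.63 for Cryab. Ranked by immediate early genes, thinning gave -0.31 for Hspb6, -0.23 for Hspb7, -0.18 for Cryab and, with the sign reversed, -0.086 for Hspb8, and the outer 10% gave -0.16 for Hspb7 and 0.44 for Hspb8. In Fibro 1 the sign reversed after thinning for Hspb6 ranked by immediate early genes (-0.56) and, ranked by chaperones, for Hspb8 (-0.23; outer 10% of cells -0.032) and Cryab (-0.10). The cause of these shifts was not tested. Depth limits Hspb8 outside VSMC and fibroblasts and every member in Neuron, which had 12 and 32 cells.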
